A study of Chlamydomonas reinhardtii with 45 samples.

Results

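In the green alga Chlamydomonas reinhardtii, 70 transcripts of 13651 tested lost most of their level within 60 min of salt and had regained much of it from 4 h on. They were chosen by these readings themselves. Levels are TPM, a transcript's share of the reads of its library after correction for length. For every transcript with at least 1 TPM in at least 3 of the 45 libraries, the mean of log2(TPM + 1) in a group was set against the mean in Control 0 h. A transcript was taken when this difference was below 1.5 after 15 min of NaCl, -3 or lower after 60 min, and between -1.5 and 1.5 at 4, 6 and 24 h. The fall and the return in NaCl are therefore described here without a test. Tests are given for mannitol, for 30 min of NaCl and for Control 24 h, none of which entered the choice. Control 0 h did enter it, so every comparison with Control 0 h is a description.

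Osmotic stress draws water from the cell, and growth pauses until compatible solutes have accumulated. NaCl adds sodium and chloride ions to the loss of water, whereas mannitol, a sugar alcohol, acts mainly as an osmolyte. Making ribosomes is among the largest costs of growth. It starts in the nucleolus, where ribosomal RNA is transcribed, modified, folded by RNA helicases and joined to proteins, and in budding yeast the genes for these assembly factors fall together, and for a limited time, after many kinds of stress.

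All cells were vegetative, haploid and wild-type, of strain CC-4533, and grew in acetate medium under low continuous light. Cultures in exponential growth received 100 mM NaCl or 300 mM mannitol and were sampled at 15, 30 and 60 min and at 4, 6 and 24 h, with 3 libraries for each of these 12 groups. The references were untreated cells at 0 h, Control 0 h, in 5 libraries, and untreated cells at 24 h, Control 24 h, in 4 libraries. The time points of a replicate came from the same flask, so groups of 1 osmolyte are not independent cultures.

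TPM sum to 1000000 in each library, so the number of reads behind a value is unknown. The errors given come from the spread between libraries, and those of the tests borrow that spread across transcripts. Each library listed 13409 to 15520 transcripts above 0. A single transcript, g15293.t1, held between 5.33% and 52.3% of a library's TPM, and the share was 29.4% to 51.2% in NaCl 60 min, 17.9% to 37.6% in mannitol 60 min and 13.2% to 37.2% in Control 0 h. The median of all tested transcripts against Control 0 h was -0.57 at NaCl 60 min and -0.55 at mannitol 60 min on the log2 scale, and the changes below are to be read relative to such shifts, which are given beside them. How much of any change comes from the composition of the libraries was not tested beyond the alternative scalings. The libraries numbered from 49 on, 1 per group, are replicate 3 of each treated group and replicate 5 of each control. They are called a second series here, a split by library number that the labels do not name.

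In NaCl the 70 transcripts moved down in steps and came partly back. For 15, 30 and 60 min their median difference from Control 0 h was -0.68, -1.95 and -3.26, and for 4, 6 and 24 h it was -1.16, -1.01 and -1.09. Over all tested transcripts the medians for the same 6 times were -0.31, -0.63, -0.57, -0.34, -0.30 and -0.39. Library by library, the median log2(TPM + 1) of the 70 lay between 4.31 and 5.26 in the 5 Control 0 h libraries, between 2.59 and 2.95 in the NaCl 30 min libraries and between 1.18 and 1.34 in the NaCl 60 min libraries. It was 3.34 to 3.59 at NaCl 4 h and 3.36 to 3.87 at NaCl 24 h. The 3 libraries at NaCl 60 min thus stood close together, below every other library, and no NaCl library from 4 h on reached the lowest of Control 0 h. Together the 70 transcripts made up 174, 180 and 274 TPM in the 3 NaCl 60 min libraries, against 2110 to 3872 TPM in the Control 0 h libraries.

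**Figure D1:**
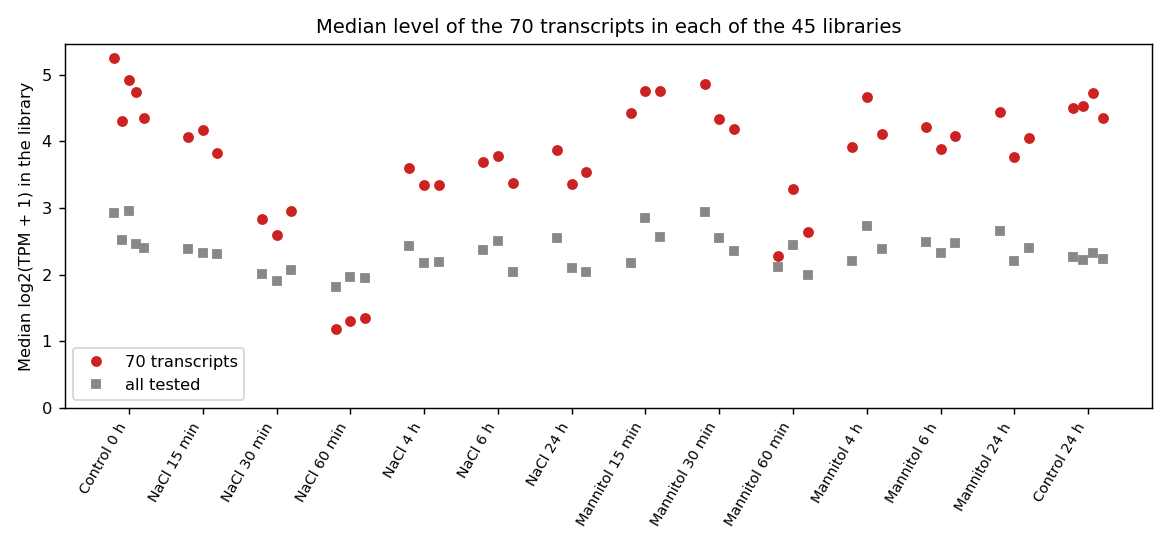
Median log2(TPM + 1) of the 70 transcripts (red circles) and of all 13651 tested transcripts (grey squares) in each of the 45 libraries, by group. The 3 NaCl 60 min libraries lie at 1.18 to 1.34 for the 70 transcripts, and the 3 mannitol 60 min libraries at 2.28 to 3.29.

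The rule favours transcripts that start high, since a difference of -3 on the log2(TPM + 1) scale cannot be reached from a low level. Mean levels in Control 0 h ran from 8.46 to 346 TPM with a median of 26.5 TPM, and the median over all tested transcripts was 5.48 TPM. Only 39.1% of tested transcripts had a mean as high as the lowest of the 70. For this reason the shares of called transcripts are, in several comparisons, also given among the 5344 tested transcripts with a Control 0 h mean of at least 8.46 TPM.

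The deepest fall belonged to g6310.t1, which the sources used here do not annotate. It was measured at 0.854, 0.697 and 0.277 TPM at NaCl 60 min, against 70.2, 25.01, 30.5, 35.2 and 43.4 TPM in Control 0 h, a difference of -4.63. Cre09.g389250 had 0.588, 0 and 0.572 TPM at NaCl 60 min, against 55.97, 17.1, 23.99, 32.97 and 31.5 TPM in Control 0 h, a difference of -4.51. In neither transcript did the groups overlap. Next came Cre01.g036950 at -4.23, Cre01.g018950 at -4.14, g1273.t1 at -4.09, g6312.t1 at -3.89, Cre03.g183900 at -3.89 and Cre12.g528950 at -3.87. None of these has a described product in the sources used here. At NaCl 60 min, 55 of the 70 were under 5 TPM in all 3 libraries, and 11 were listed at 0 in at least 1 library. In these bulk samples, fewer cells with the transcript and less of it per cell cannot be told apart. In every other group no member was listed at 0.

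The lower edge of the choice cut through a continuous range. The 3 members just inside the limit were Cre12.g551050 at -3.002, Cre02.g103050 at -3.004 and Cre06.g263850 at -3.005 at NaCl 60 min. The 3 transcripts just outside it were Cre12.g527300 at -2.986, Cre16.g683750 at -2.984 and Cre06.g293900 at -2.978. In all, 187 tested transcripts were at -3 or lower at NaCl 60 min. The 117 that were not taken all lay below -1.5 at 1 or more of 4, 6 and 24 h, and 50 of them at all 3 times.

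The return in NaCl was partial. Of the 70, 66 stayed below Control 0 h at 4, 6 and 24 h alike, 60 were at -0.5 or lower at all 3 times and 28 were at -1 or lower at all 3. None lay within 0.5 of Control 0 h at all 3 times. With median-ratio scaling of the libraries, the median difference of the 70 was -2.74 at NaCl 60 min, and -0.76, -0.64 and -0.57 at 4, 6 and 24 h, and 68, 66 and 62 members were below Control 0 h at the last 3 of these times. Membership itself depends on that scaling. The same rule on scaled values takes 45 transcripts, of which 16 are among the 70, and only these 16 of the 70 reach -3 at NaCl 60 min after scaling. The 4 transcripts above Control 0 h at 24 h of NaCl were Cre12.g487700 at 0.54, Cre05.g248400 at 0.41, Cre03.g181000 at 0.20 and Cre05.g248450 at 0.10.

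**Figure D2:**
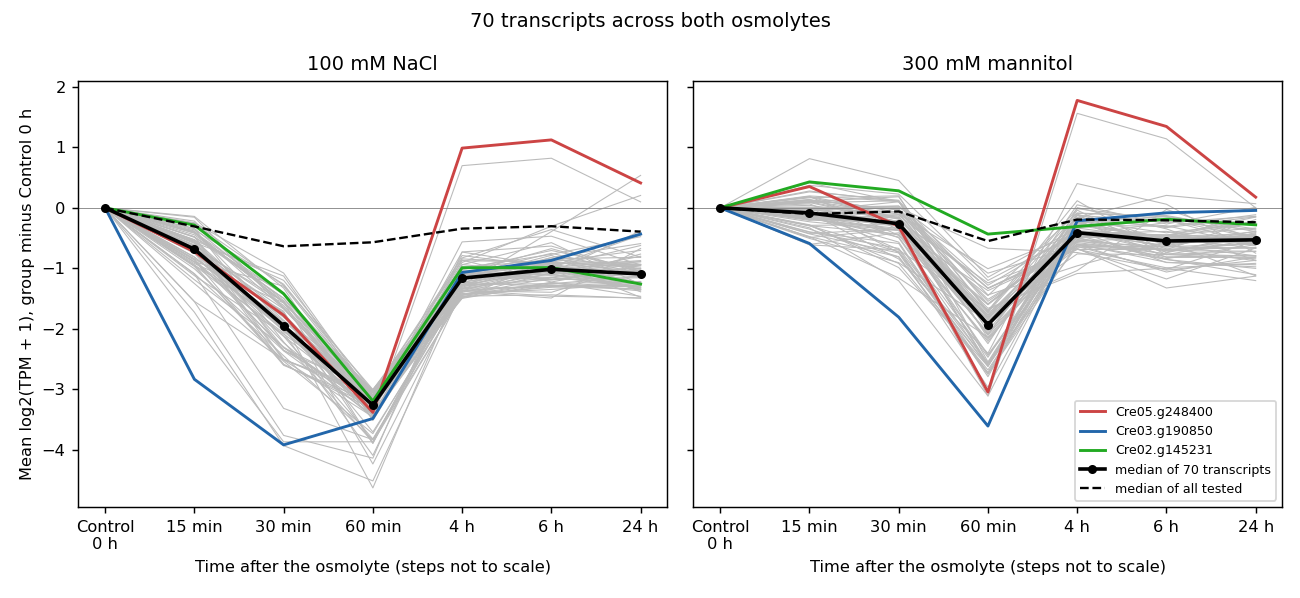
Mean log2(TPM + 1) of each group minus Control 0 h, for the 70 transcripts (grey lines, with Cre05.g248400, Cre03.g190850 and Cre02.g145231 coloured), their median (black) and the median of all tested transcripts (dashed), over time in NaCl on the left and in mannitol on the right. The median of the 70 is at -3.26 at 60 min of NaCl and -1.93 at 60 min of mannitol.

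The fall was under way at 30 min of NaCl, a time that the choice did not use. Set against Control 24 h, 26 of the 70 (37.1%) were called lower at NaCl 30 min, and none was called higher. A call needed a limma p below 0.01 after Benjamini-Hochberg adjustment and a change of more than 2 on the log2 scale. Among all tested transcripts 1.59% were called lower and 3.18% higher in this comparison, and among those of at least 8.46 TPM 3.41%. The median log2 fold change was -1.78 for the 70 and -0.33 for all tested transcripts. At the same adjusted p without a limit on size, 66 were lower, where the background is 20.6%. In 68 of the 70 every NaCl 30 min library was below every Control 24 h library, a pattern that 33.8% of all tested transcripts showed. With median-ratio scaling the number called was 13, with quantile normalization 15, and after g15293.t1 and g15294.t1 had been taken out of the TPM 17.

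A few members had fallen nearly all the way by 30 min. The difference at NaCl 30 min, as a share of that at 60 min, ranged from 34.4% in Cre12.g484500 to 113% in Cre03.g190850, with a median of 58.3%. Cre01.g018950 had 1.62, 1.81 and 2.21 TPM at NaCl 30 min, against 44.6, 40.3, 57.9 and 69.6 TPM in Control 24 h, and its log2 fold change was -4.20 ± 0.22 (SE, adjusted p = 5.2e-07 by limma). Cre07.g340050 had 8.99, 10.02 and 9.98 TPM at NaCl 30 min, against 146, 126, 158 and 265 TPM in Control 24 h, with a log2 fold change of -3.98 ± 0.25. In both transcripts all NaCl 30 min libraries were below Control 24 h. Their differences from Control 0 h were already -3.76 and -3.87 at NaCl 30 min, and -4.14 and -3.87 at 60 min. Cre09.g389250 at -4.02 ± 0.26 and Cre13.g576400 at -3.67 ± 0.21 showed the same early fall.

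Cre03.g190850 was the earliest. It stood at 7.90, 7.48 and 14.4 TPM at NaCl 15 min, 2.06, 3.74 and 7.39 TPM at 30 min and 5.34, 3.17 and 10.4 TPM at 60 min, against 98.0, 50.2, 70.2, 63.7 and 99.2 TPM in Control 0 h. Its difference from Control 0 h was -2.83 at 15 min, where no other member was below -2. By 24 h of NaCl it had 51.7, 39.4 and 78.9 TPM, which overlaps Control 0 h. Its log2 fold change at NaCl 30 min against Control 24 h was -4.12 ± 0.32 (SE, adjusted p = 4.9e-06 by limma).

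In mannitol the median of the same transcripts went down later and less far than in NaCl, and came closer to Control 0 h again. The NaCl values at 60 min and from 4 h on entered the choice, and a choice by low NaCl 60 min values favours a deeper fall in NaCl. The contrast with NaCl is therefore a description. For 15, 30 and 60 min the median difference from Control 0 h was -0.08, -0.26 and -1.93, and for 4, 6 and 24 h it was -0.41, -0.55 and -0.53, where all tested transcripts had medians of -0.10, -0.06, -0.55, -0.19, -0.21 and -0.24. The lowest mannitol time was 60 min in 69 of the 70, as in 52.3% of all tested transcripts. Library medians of the 70 were 2.28, 3.29 and 2.64 at mannitol 60 min, against 4.36 to 4.73 in Control 24 h, so the groups did not overlap, though the mannitol libraries were spread more widely than those at NaCl 60 min.

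Against Control 24 h, 27 of the 70 (38.6%) were called lower at mannitol 60 min and none higher, with 2.53% of all tested transcripts called lower and 5.3% higher, and 6.08% of those of at least 8.46 TPM called lower. Without a limit on size 59 were lower, with a background of 19.1%. The median log2 fold change was -1.70 for the 70 and -0.24 for all. Every mannitol 60 min library lay below every Control 24 h library in 62 of the 70, and in 29.6% of all tested transcripts. This comparison and that of NaCl 30 min share the Control 24 h libraries, so their counts are not independent. Against Control 0 h, whose high values favoured a transcript's choice, the same calculation gave 34 lower and none higher, beside 3.55% and 2.85% of all tested transcripts, and nothing is read from this count.

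Comparisons within mannitol use no control at all. With mannitol 60 min set against mannitol 15 min, 34 of the 70 (48.6%) were called lower and none higher, where 2.62% of all tested transcripts were called lower and 3.77% higher, and the median log2 fold change was -1.97 against -0.47 for all. At mannitol 4 h against mannitol 60 min 24 (34.3%) were called higher and none lower, where 2.26% of all were called higher and 2.7% lower, and the median was 1.65 against 0.31. Among the tested transcripts of at least 8.46 TPM, 6.04% were called lower in the first comparison and 4.92% higher in the second. Both comparisons use the mannitol 60 min libraries. With median-ratio scaling each gave 12 calls, in the same directions. Without the filter on low values the calls fell to 4 for mannitol 60 min against 15 min and to 0 for mannitol 4 h against 60 min.

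The largest falls in mannitol included those of the transcripts that were early in NaCl. Cre03.g190850 had 5.98, 4.36 and 5.20 TPM at mannitol 60 min, against 77.4, 74.2, 74.0 and 125 TPM in Control 24 h, a log2 fold change of -3.81 ± 0.26 (SE, adjusted p = 9.3e-08 by limma). It was also the only member called at mannitol 30 min, with 31.3, 9.87 and 26.9 TPM and a log2 fold change of -2.01 ± 0.34 (adjusted p = 0.00071). The backgrounds of that comparison are 0.0733% lower and 0.711% higher, and the call was lost when mannitol 30 min replicate 1 or 2, or Control 24 h replicate 5, was left out. Cre01.g018950 had 1.76, 7.12 and 4.49 TPM at mannitol 60 min and fell by 3.41 on the log2 scale, Cre09.g389250 had 1.81, 2.44 and 3.78 TPM and fell by 3.19, and Cre13.g576400 had 7.07, 16.2 and 12.1 TPM and fell by 2.93. In each of the 3, every mannitol 60 min library was below every Control 24 h library.

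A few members had small differences in mannitol. Cre02.g145231 had 22.8, 29.3 and 18.5 TPM at mannitol 60 min, against 24.2, 33.8, 34.2 and 23.2 TPM in Control 24 h. The groups overlapped, and the log2 fold change was -0.29 ± 0.26 (SE, adjusted p = 0.37 by limma). In NaCl 60 min it had 2.55, 2.88 and 2.29 TPM. Next were g1287.t1, with 9.82, 18.5 and 16.2 TPM at mannitol 60 min and a log2 fold change of -0.57 ± 0.27, and Cre02.g103050 at -0.64 ± 0.37, neither of which passed the test. Only Cre05.g248400 and Cre05.g248450 were higher in the mean than in Control 24 h, at 0.90 ± 1.27 and 0.63 ± 0.87 (adjusted p = 0.59 and 0.58). That these values missed the threshold does not show that mannitol left the transcripts as they were.

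At the later mannitol times few differences from Control 24 h passed the limma test. None was called at 15 min, where 6 had an unadjusted p under 0.05 and 12.6% of all tested transcripts did, and where 0.0659% of all were called lower and 0.205% higher. None was called at 24 h, where 20 had an unadjusted p under 0.05, with 17.6% of all, and where 0.0659% of all were called lower and 0.454% higher. At 4 and 6 h none was called lower, with backgrounds of 0.425% and 0.205%. There 12 and 36 had an unadjusted p under 0.05, with 23.4% and 26.1% of all. As a share of the 70, such p-values were more frequent than over all tested transcripts at 6 and 24 h, and less frequent at 15 min and 4 h. At 4 and 6 h 1 was called higher at each time, Cre05.g248450, with backgrounds of 0.996% and 0.747%. The number called higher at 4 h was 0 when mannitol 4 h replicate 2 or 3 or Control 24 h replicate 2, 3 or 4 was left out, with a pseudocount of 0.1, without the filter on low values and among transcripts of a mean of 5 TPM or more. At 6 h it was 0 when any mannitol 6 h replicate or Control 24 h replicate 2, 3 or 4 was left out, without the filter, with plain eBayes and with the replicate block. It was 2 at both times without Control 24 h replicate 5, in the joint fit, with library series as a block, in the first series and without g15293.t1 and g15294.t1. At 4 h it was also 2 with quantile normalization and the replicate block. At 15 min 2 were called higher with either block, in the first series and without Control 24 h replicate 5, and 1 in the joint fit. At 24 h 2 were called higher with library series as a block and in the first series, and 1 in the joint fit and without Control 24 h replicate 5. The medians of the 70 were -0.30 at 4 h, -0.48 at 6 h and -0.44 at 24 h, against 0.10, 0.09 and 0.08 for all tested transcripts. After g15293.t1 and g15294.t1 had been taken out of the TPM they were 0.04, -0.17 and -0.15, against 0.39, 0.38 and 0.32 for all, so that the sign at 4 h turned. As deposited, 65 of the 70 were below Control 24 h in the mean at 24 h.

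**Figure D3:**
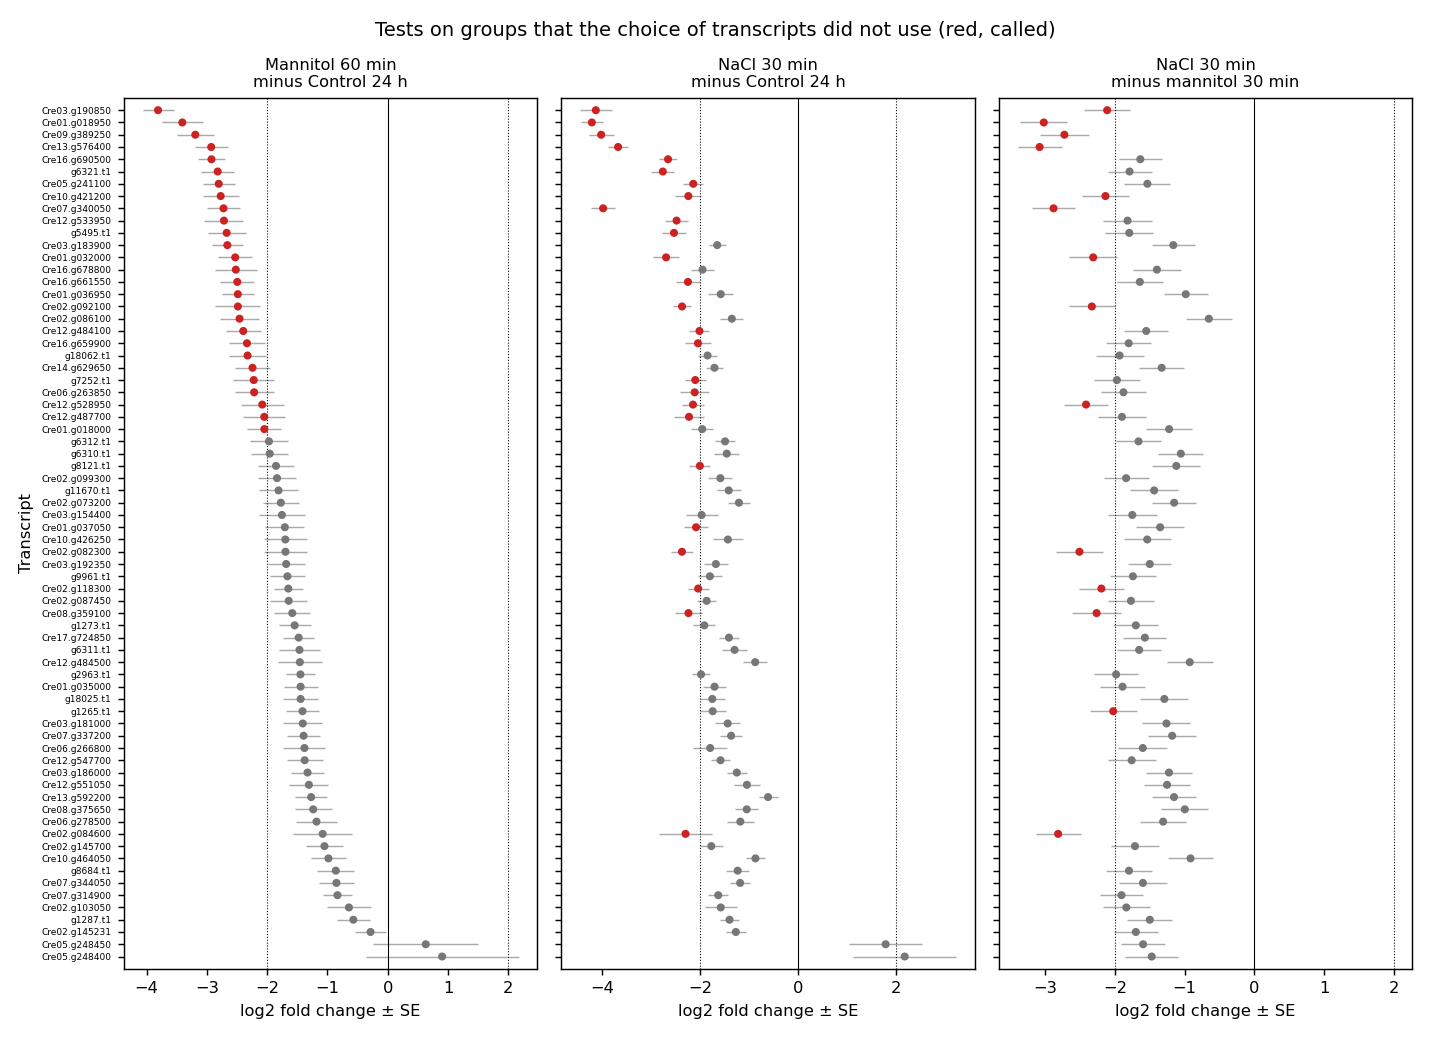
log2 fold change ± SE (limma) of each of the 70 transcripts at mannitol 60 min against Control 24 h (left), NaCl 30 min against Control 24 h (middle) and NaCl 30 min against mannitol 30 min (right), ordered by the left panel. Red points were called (adjusted p under 0.01 and beyond the dotted lines at -2 and 2), and 27, 26 and 14 of the 70 were called lower.

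The osmolytes were compared directly at 30 min. With NaCl set against mannitol, 14 of the 70 (20%) were called lower and none higher, where 0.945% of all tested transcripts were called lower and 0.462% higher, and 2.02% of those of at least 8.46 TPM were called lower. All 70 had a lower mean in NaCl, the median log2 fold change was -1.68 against -0.59 for all, and 66 passed the adjusted p alone, where the background is 24.1%. Scaling bore strongly on the number called, which was 5 with median-ratio scaling, 6 with quantile normalization and 7 without g15293.t1 and g15294.t1. Without the filter on low values it was 1. In the first library series alone it was 27.

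Cre13.g576400 showed the largest direct difference. It had 4.71, 6.18 and 8.47 TPM at NaCl 30 min, against 71.4, 42.4 and 73.8 TPM at mannitol 30 min, a log2 fold change of -3.08 ± 0.32 (SE, adjusted p = 5.0e-19 by limma). Cre01.g018950 had 1.62, 1.81 and 2.21 TPM in NaCl, against 27.1, 18.6 and 21.9 TPM in mannitol, a log2 fold change of -3.02 ± 0.34. Cre07.g340050 followed at -2.88 ± 0.31, with 107, 49.7 and 87.4 TPM in mannitol. None of the 3 had overlapping groups. The p-value rests largely on a spread that limma shares across transcripts.

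At 60 min the mannitol values can only be set beside the NaCl values that chose the transcripts. The difference from Control 0 h was higher in mannitol than in NaCl in 69 of the 70, by a median of 1.43 on the log2 scale, where all tested transcripts had a median of 0.13. The exception was Cre03.g190850, at -3.61 in mannitol and -3.48 in NaCl. In 57 members all mannitol 60 min libraries were above all NaCl 60 min libraries. The choice by low NaCl 60 min values favours this, and the share over all tested transcripts was not calculated, so nothing is read from this count. From 4 h on, the mean was again higher in mannitol than in NaCl, in 69 of the 70 at 4 h, 65 at 6 h and 61 at 24 h. This held for 62.6%, 61.1% and 63.1% of all tested transcripts. The NaCl values at these times also entered the choice, so these counts are descriptions.

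Mannitol 60 min was also set against NaCl 30 min. No member was called between these groups by limma, with backgrounds of 0.022% lower and 0.198% higher, and 15 had an unadjusted p under 0.05, as did 20% of all tested transcripts. The median log2 fold change of the 70, mannitol 60 min over NaCl 30 min, was -0.05, and it was 0.20 without mannitol 60 min replicate 1, 0.09 without replicate 3 and 0.12 in the first library series. Single values had a range from -1.27 in Cre05.g248400 to 1.25 in Cre07.g340050 and standard errors of 0.26 to 0.72. Cre07.g340050 had 20.1, 29.01 and 24.6 TPM at mannitol 60 min, against 8.99, 10.02 and 9.98 TPM at NaCl 30 min, and its groups did not overlap (adjusted p = 0.011 by limma). Cre16.g690500 had 24.3, 38.4 and 32.5 TPM at mannitol 60 min, against 33.1, 36.5 and 45.01 TPM at NaCl 30 min, and overlapped.

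The study's tables describe the products of 391 tested transcripts, and only 3 of the 70 are among them. Cre16.g690500 is described as a nucleolar protein and was the second most abundant of the 70. It had 15.6, 12.4 and 13.8 TPM at NaCl 60 min, against 290, 147, 214, 238 and 192 TPM in Control 0 h, and 88.7, 52.3 and 98.7 TPM at NaCl 4 h. At mannitol 60 min it had 24.3, 38.4 and 32.5 TPM, against 248, 251, 229 and 247 TPM in Control 24 h, a log2 fold change of -2.93 ± 0.22 (SE, adjusted p = 2.8e-07 by limma). Against the same controls its log2 fold change at NaCl 30 min was -2.65 ± 0.18. It came back to 133, 222 and 211 TPM at mannitol 4 h, which was 2.52 ± 0.37 higher than at mannitol 60 min (adjusted p = 9.1e-10).

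Cre02.g118300 encodes a DEAD box RNA helicase, an ATP-driven enzyme that unwinds RNA, whose best match in Arabidopsis is the nucleolar helicase PRH75. It had 1.85, 1.84 and 1.397 TPM at NaCl 60 min, against 65.7, 15.1, 17.9, 42.3 and 25.1 TPM in Control 0 h. After 30 min of NaCl it had 6.96, 3.89 and 5.503 TPM, against 21.4, 23.8, 27.5 and 27.7 TPM in Control 24 h, a log2 fold change of -2.04 ± 0.21 (SE, adjusted p = 3.3e-05 by limma). At mannitol 60 min it had 6.11, 8.66 and 7.25 TPM and a log2 fold change of -1.65 ± 0.24 (adjusted p = 8.5e-05), which passed the p threshold but not the limit on size. The groups did not overlap in either comparison, and by mannitol 24 h its 34.996, 21.3 and 22.9 TPM overlapped Control 24 h.

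Cre13.g592200 is described as glutamate synthase, the enzyme that makes glutamate from glutamine and 2-oxoglutarate in nitrogen assimilation. It had 9.10, 13.02 and 12.5 TPM at NaCl 60 min, against 129, 94.9, 133, 72.7 and 89.6 TPM in Control 0 h. Its level in Control 24 h was itself lower, at 50.1, 50.4, 56.2 and 74.6 TPM, and the log2 fold change at NaCl 30 min against Control 24 h was only -0.61 ± 0.19 (SE, adjusted p = 0.023 by limma). At mannitol 60 min it had 16.9, 31.3 and 23.1 TPM and a log2 fold change of -1.27 ± 0.26 (adjusted p = 0.0012). At mannitol 6 h it stood at 129, 89.0 and 138 TPM, all above Control 24 h, a difference of 1.02 ± 0.23 that was not called (adjusted p = 0.022).

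**Figure D4:**
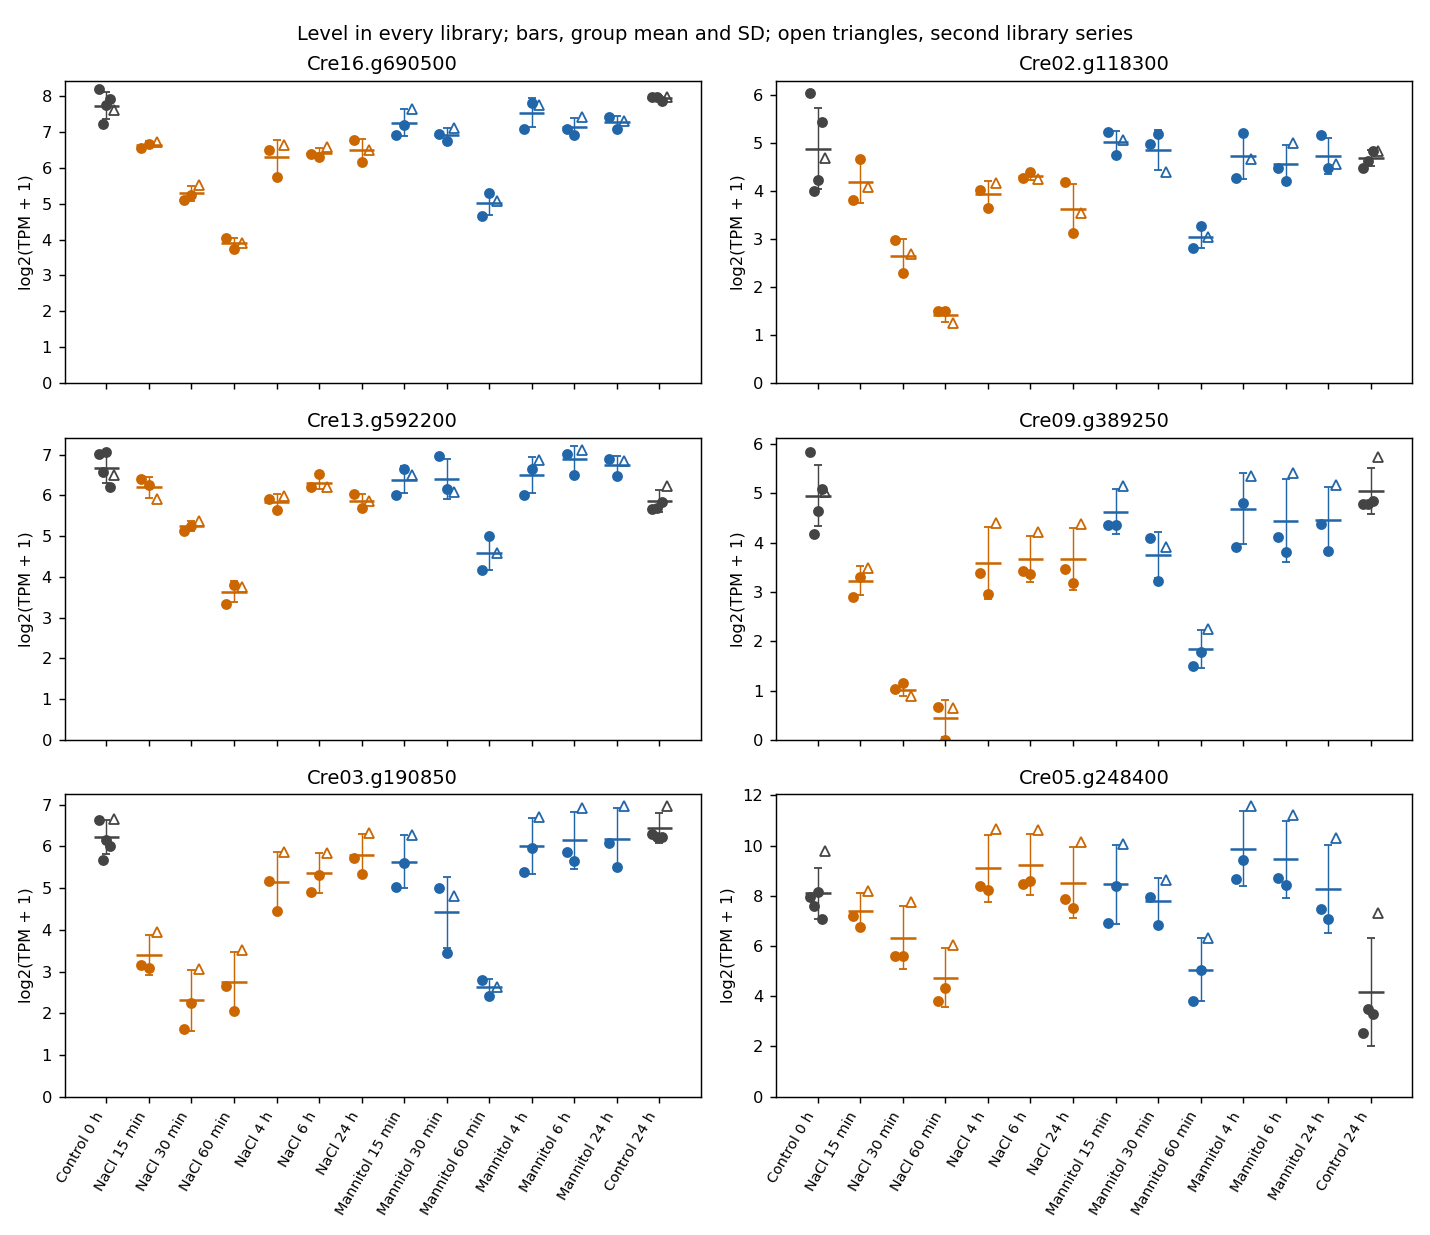
log2(TPM + 1) in every library for the 3 members with a described product (Cre16.g690500, Cre02.g118300 and Cre13.g592200), 2 early fallers (Cre09.g389250 and Cre03.g190850) and Cre05.g248400, with group means and SD (n = 5 for Control 0 h, 4 for Control 24 h, 3 otherwise). Open triangles mark the second library series, and in Cre05.g248400 they lie above the other libraries in all 14 groups.

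Ribosome assembly factors as a list were found by words in the study's descriptions, which gave 8 tested transcripts, 1 of them a member, Cre16.g690500. At mannitol 60 min against Control 24 h 3 of the 8 were called lower, namely Cre16.g690500, Cre17.g701050, described as a nucleolar protein that regulates cell growth, and Cre06.g275100, described as nucleolin, a major nucleolar protein that binds ribosomal RNA. Of the 8, 5 were lower without a limit on size, and none was higher at either setting. Over all tested transcripts 2.53% were called lower and 5.3% higher, and 19.1% were lower and 15.8% higher without the limit. In NaCl 30 min against Control 24 h 2 of the 8 were called lower, Cre16.g690500 and Cre17.g701050, and 7 were lower without a limit on size. Over all tested transcripts these shares were 1.59% and 20.6%. The medians of the list were -1.44 and -1.70 in these comparisons, against -0.24 and -0.33 for all tested transcripts. Such a short list does not represent the pathway.

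Of the list, 3 transcripts that were at -3 or lower at NaCl 60 min were not members, because they lay below -1.5 at later times. Nucleolin, Cre06.g275100, averaged 13.6 ± 2.0 TPM at NaCl 60 min and 593 ± 200.3 TPM in Control 0 h (SD, n = 3 and 5), a difference of -5.29, and stood at -1.80 at 4 h. Cre03.g172950, named NAP57 in the study, after a protein of the pseudouridine synthase complex that modifies ribosomal RNA in mammals, was at -4.71 at NaCl 60 min and -1.80 at 4 h. The rRNA methyltransferase Nop2, Cre06.g273413, was at -4.11 and -1.74. The member Cre16.g690500 was at -3.83 at NaCl 60 min and -1.44 at 4 h, just inside the limit of -1.5. The other lists found in the same way were cytosolic ribosomal proteins (3 tested), translation factors and tRNA (8), chaperones (5), purine and pyrimidine synthesis (5) and cell cycle and DNA replication (6). They held no member. None of their transcripts was called at NaCl 30 min against Control 24 h, where 1.59% of all were called lower and 3.18% higher. At mannitol 60 min Cre08.g372550, CDKB1, a cyclin dependent kinase of plants, was the only one called, and it was lower. In that comparison 2.53% of all were called lower and 5.3% higher. Most of the cell cycle list were adenylate or guanylate cyclases whose symbols the search for words had caught, and no RNA polymerase I or III subunit was found.

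Cre05.g248400 and Cre05.g248450 followed the others in NaCl and in mannitol until 60 min and then departed from them. These neighbouring genes, with none between them in the RefSeq annotation of assembly v5.5, were the most and the third most abundant of the 70. Cre05.g248400 had 13.2, 32.2 and 78.8 TPM at mannitol 60 min, against 121, 331 and 1082 TPM at mannitol 15 min, a log2 fold change of -3.40 ± 0.53 (SE, adjusted p = 2.6e-06 by limma). At mannitol 4 h it had 407, 682 and 3028 TPM, which was 4.82 ± 0.83 higher than at mannitol 60 min (adjusted p = 0.0022). Cre05.g248450 moved in the same way, by -3.46 ± 0.40 and 4.67 ± 0.38. Their mean differences from Control 0 h at 4 h were 0.99 and 0.70 in NaCl, where the other 68 were below 0, and 1.78 and 1.56 in mannitol.

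The same pair was low in untreated cells at 24 h. Cre05.g248400 had 4.81, 10.3, 8.84 and 159 TPM in Control 24 h, against 244, 193, 283, 134 and 876 TPM in Control 0 h, and Cre05.g248450 had 7.60, 7.48, 6.16 and 71.8 TPM, against 168, 125, 205, 111 and 464 TPM. Replicate 5 was the highest library in every case, and Control 24 h and Control 0 h overlapped in Cre05.g248400 through that replicate alone. The log2 fold changes were -3.95 ± 0.99 and -3.74 ± 0.71 (SE), and neither was called. The comparison uses controls of the choice, was added after the values had been seen and is given as a description. None of the 70 was called in it by limma, and 3 had an unadjusted p under 0.05, where 21.1% of all tested transcripts did, and 0.33% of all were called lower and 0.0659% higher. With the replicate number as a block, or without Control 24 h replicate 5, both were called lower, at -3.99 and -3.78 with the block and at -4.998 and -4.53 without the replicate. In NaCl 30 min against Control 24 h the pair was higher in the mean, by 2.17 ± 1.05 and 1.78 ± 0.74, opposite to the other 68 and not called. Without Control 24 h replicate 5 both were called higher, at 3.22 and 2.58.

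The pair's levels were not in a fixed ratio. Cre05.g248400 was at 0.632 to 3.01 times the TPM of Cre05.g248450 over the 45 libraries, with a median of 1.53. Whether the genes are similar enough to share reads was not tested, and their values are uncertain to that extent.

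Of the 70, 54 had a Cre gene ID, and 53 of these were found in the RefSeq gene table, on 14 chromosomes. The other 16 had a g number and were not placed. Among them g6310.t1, g6311.t1 and g6312.t1 have consecutive numbers, and whether they are neighbours was not tested. None came from a gene with more than 1 transcript in the file. Among the 53 that were placed, besides the pair on chromosome 5, Cre01.g036950 and Cre01.g037050 lay near each other with 1 gene between them. Cre01.g036950 had 8.02, 9.24 and 5.33 TPM at mannitol 60 min, against 49.6, 41.7, 57.7 and 37.2 TPM in Control 24 h, and was called lower at -2.49. Cre01.g037050 was at -1.71 in the same comparison and was not called.

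The 117 transcripts that reached the limit at NaCl 60 min but were not taken were set beside the 70. All of the 117 lay below the lower limit for the later NaCl times at some of these times, and 50 at every such time. The sets were compared where the choice had not used the values. At mannitol 60 min against Control 24 h 39 of the 117 (33.3%) were called lower, beside the 38.6% of the 70, and the medians were -1.52 and -1.70. In NaCl 30 min against Control 24 h 32 (27.4%) were called lower, beside 37.1%, with medians of -1.68 and -1.78. With NaCl set against mannitol at 30 min 35 (29.9%) were called lower, beside 20%, with medians of -1.72 and -1.68. At mannitol 24 h against Control 24 h none of either set was called, with medians of -0.53 and -0.44. The difference between the sets was not tested.

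**Figure D5:**
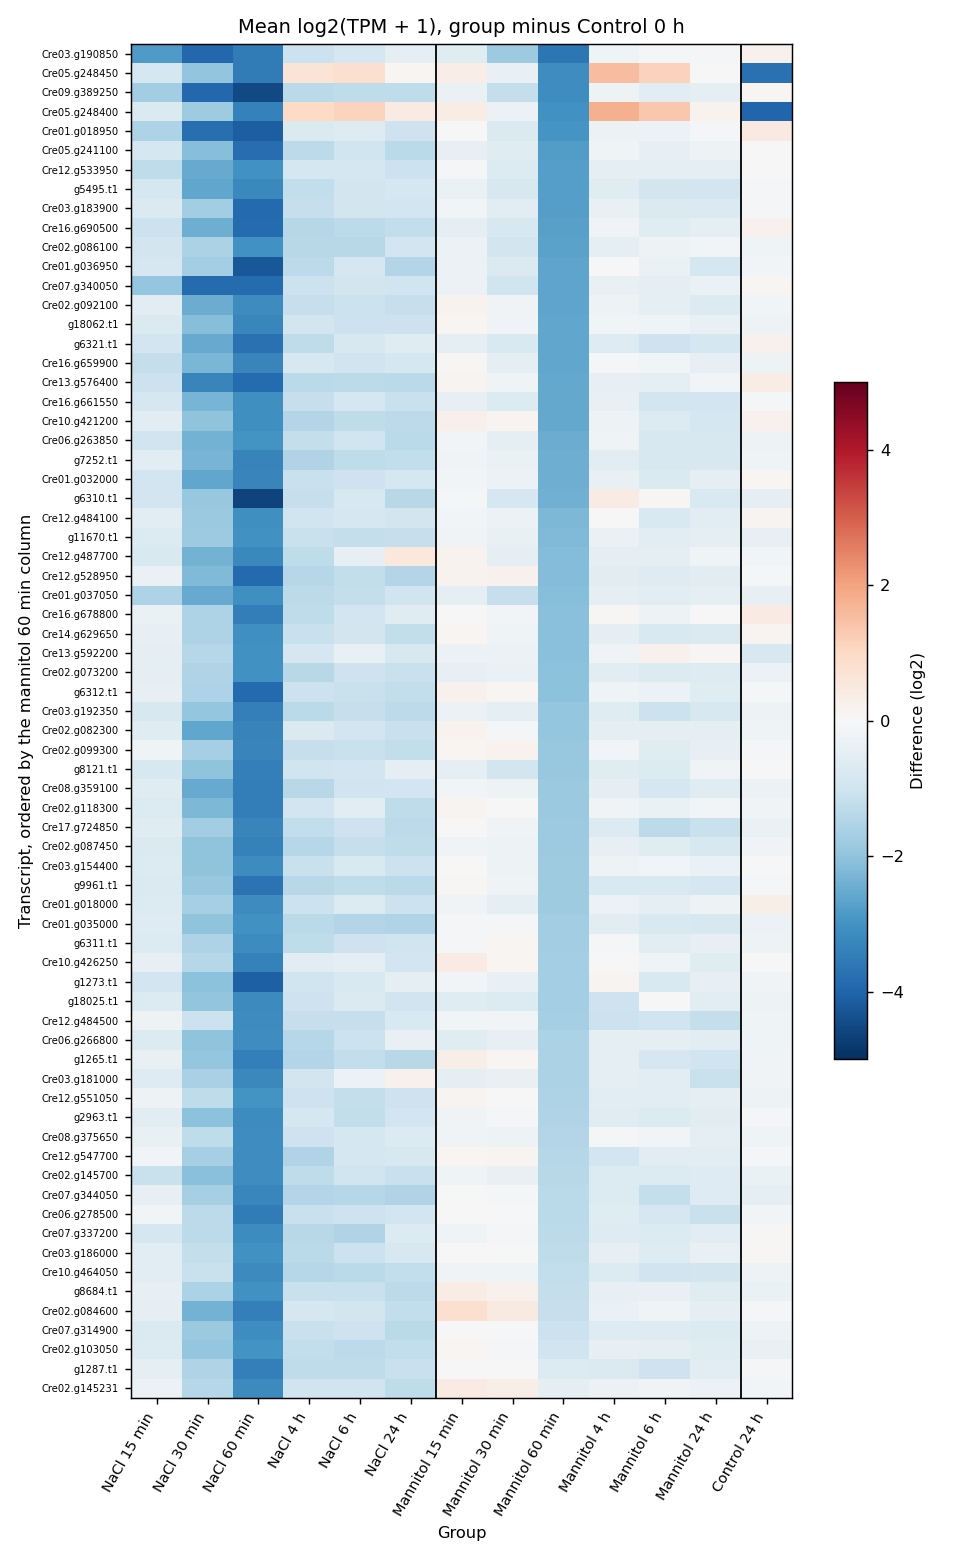
Difference in mean log2(TPM + 1) from Control 0 h for each of the 70 transcripts (rows, ordered by mannitol 60 min) in the NaCl groups, the mannitol groups and Control 24 h (columns). Blue is lower, and Cre05.g248400 and Cre05.g248450 are the only rows that are deep blue in Control 24 h, at -3.95 and -3.74.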

How the data were processed

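The authors aligned single-end RNA-seq reads with BWA to Chlamydomonas genome version 5.6, called differential expression with DESeq2 and deposited TPM, 1 column per library, 45 in all. How the TPM were calculated is not given in the sources used here. All columns of libraries were matched by name to samples. Each library sums to 1000000 TPM, so depth and counting error are unknown.

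The 13651 transcripts that reached 1 TPM in 3 or more libraries were tested. Their deposited TPM, plus 1 and on a log2 scale, were fitted with R 4.3.3 and its package limma 3.58.1 (trended and robust eBayes), with only the libraries of the pair of groups in each fit and Benjamini-Hochberg adjustment per comparison. Adjusted p had to be below 0.01 and the log2 change larger than 2 for a call. Because 1 is added, changes of low transcripts are understated. The procedure was tested on simulated data. Tables were made with Python 3.11.15 and pandas 2.3.3, and plots with matplotlib 3.10.9.

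The 70 members, the lists and the rule for named transcripts were chosen with earlier results of these data known. Named were the 8 lowest at NaCl 60 min, the 5 lowest and 5 highest at mannitol 60 min and the 5 lowest at NaCl 30 min (each against Control 24 h), the 3 nearest the -3 limit on each side, the 3 most abundant and all with a described product. Other members were named after their values were seen. Product descriptions come from the study's phosphoproteome and mutant tables, and neighbours from RefSeq's gene table of assembly v5.5, of which no coordinates are given, because the files use another version.

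Replicate numbers come from the labels. Deviations of same-numbered libraries had correlations of 0.136, 0.202 and 0.462 for mannitol 60 min against mannitol 15 min. They were 0.24, 0.132 and 0.402 for mannitol 60 min against NaCl 30 min, and 0.137 to 0.699 for Control 24 h against Control 0 h. The best match had another number for mannitol 60 min replicate 1 against 15 min and for Control 24 h replicates 3 and 4. For replicate 3 of treated groups the correlation with controls was negative. It was -0.229 for mannitol 60 min against Control 0 h and -0.449 for mannitol 24 h against Control 24 h. Replicate 3 of treated groups is of the second library series and replicate 3 of the controls of the first. The same number thus joins different series in these comparisons, and so does the replicate block. Numbers do not reliably pair libraries. P-values come from limma's moderated variance, which pulls each transcript's spread between libraries towards that of all tested transcripts. Standard errors of the 70 ran only from 0.31 to 0.38 for NaCl 30 min against mannitol 30 min. They ran from 0.39 to 0.53 for mannitol 60 min against 15 min. For mannitol 4 h against 60 min they were 0.83 in Cre05.g248400 and 0.37 to 0.40 in the others. In these comparisons a very small p rests largely on the shared spread. Alternatives were a pseudocount of 0.1, no filter or one on a mean of 5 TPM, scaling by median ratios or quantiles, a log2 limit of 1, a joint fit, a block for replicate or for library series, plain eBayes, other limits of the choice, and each library left out. Chosen after seeing the data were the removal of g15293.t1 and g15294.t1 from the TPM and the use of the first library series only.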

Additional observations from a re-analysis of the deposited data

Results flagged for a closer look

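In 42 sets of control values of named transcripts, 6 held a library far from the others. Chance gives about 1 in 20 for independent, normally distributed sets. These sets share libraries and include the neighbouring pair on chromosome 5, so that rate is only a rough guide. In all 6 the library was replicate 5, of the second library series. In Control 24 h it had 52.2 TPM of Cre09.g389250, against 27.9 TPM in the next library, 125 TPM of Cre03.g190850 against 77.4 TPM, 159 TPM of Cre05.g248400 against 10.3 TPM and 71.8 TPM of Cre05.g248450 against 7.60 TPM. In Control 0 h it had 876 TPM of Cre05.g248400 against 283 TPM and 464 TPM of Cre05.g248450 against 205 TPM. The part of the library series in these levels was not tested.

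At 30 min, 7 of the 21 named members were called lower in NaCl than in mannitol by the direct limma test, where 0.945% of all tested transcripts were. This count is a description, since Cre01.g018950, Cre03.g190850, Cre09.g389250, Cre07.g340050 and Cre13.g576400 were named for being lowest at NaCl 30 min, in the libraries tested. The log2 fold changes, NaCl over mannitol, were -3.08 in Cre13.g576400, -3.02 in Cre01.g018950, -2.88 in Cre07.g340050, -2.72 in Cre09.g389250, -2.41 in Cre12.g528950, -2.19 in Cre02.g118300 and -2.11 in Cre03.g190850. Every NaCl 30 min library was below every mannitol 30 min library in 67 of the 70, as in 44.8% of all tested transcripts.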

How the results depend on the processing

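The medians of the 70 changed sign in 5 comparisons. For mannitol 4 h against Control 24 h this was without g15293.t1 and g15294.t1 (0.04), and for mannitol 60 min against NaCl 30 min without mannitol 60 min replicate 1 or 3 or in the first series (0.20, 0.09 and 0.12). For Control 24 h against Control 0 h, -0.15, it was with median-ratio scaling (0.24) and quantile normalization (0.20). For mannitol 15 min against Control 24 h, 0.05, it was with these scalings (-0.19 and -0.14), without mannitol 15 min replicate 2 (-0.07) and in the first series (-0.0015), and for mannitol 30 min against Control 24 h, -0.08, without mannitol 30 min replicate 3 (0.07) and in the first series (0.03). The number of members, 70, became 384 with a pseudocount of 0.1 (57 shared), 45 with median-ratio scaling (16 shared), 34 with quantile normalization (14 shared), 214 with a limit of -2.5 and 15 with -3.5, and 57 to 83 when a library was left out. A log2 limit of 1 gave 59 calls at mannitol 60 min and 65 at NaCl 30 min against Control 24 h, 60 at mannitol 60 min against 15 min, 47 at mannitol 4 h against 60 min, 65 at NaCl 30 min against mannitol 30 min, 65 at mannitol 60 min against Control 0 h, 3 at mannitol 30 min and 1 at 6 h against Control 24 h. Median-ratio scaling gave 12, 12, 13, 5 and 13 for mannitol 60 min against 15 min, mannitol 4 h against 60 min, NaCl 30 min against Control 24 h, NaCl 30 min against mannitol 30 min and mannitol 60 min against Control 0 h. Quantile normalization gave 15 and 6, and TPM without g15293.t1 and g15294.t1 17 and 7, for NaCl 30 min against Control 24 h and against mannitol 30 min. No filter on low values gave 4 for mannitol 60 min against 15 min, 0 for mannitol 4 h against 60 min, 1 for NaCl 30 min against mannitol 30 min and 0 for mannitol 30 min against Control 24 h, and the cause was not tested. For NaCl 30 min against mannitol 30 min, a pseudocount of 0.1 and the first library series each gave 27. With a library left out, calls ranged over 22 to 34 at mannitol 60 min and 19 to 30 at NaCl 30 min against Control 24 h, 25 to 41 at mannitol 60 min against 15 min, 16 to 33 at mannitol 4 h against 60 min, 10 to 21 at NaCl 30 min against mannitol 30 min, 25 to 43 at mannitol 60 min against Control 0 h, 0 to 1 at mannitol 30 min and 0 to 2 at Control 24 h against Control 0 h. The last was also 2 in the joint fit, with library series as a block and in the first series, and 1 with plain eBayes or without g15293.t1 and g15294.t1. The replicate block gave 21, 34, 24, 27, 14 and 37 calls at mannitol 60 min against Control 24 h, 60 against 15 min, 4 h against 60 min, NaCl 30 min against Control 24 h and against mannitol 30 min, and mannitol 60 min against Control 0 h. It changed 0 to 2 at Control 24 h against Control 0 h and, among the comparisons just named, no other number of calls by over 1.5 times. Of 5166 named values under alternatives, 134 lost a call, 134 gained one and no called value changed sign.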
